A study of Mus musculus with 6 samples.

Results

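The genes described here are the amino acid transporters of the mouse cerebellum at postnatal day 1. They were taken as every protein-coding gene whose symbol begins with Slc7a, Slc38a or Slc36a, together with *Slc1a1*, *Slc1a4*, *Slc1a5*, *Slc1a6*, *Slc3a1*, *Slc3a2*, *Slc43a1* and *Slc43a2*. This gave 39 of the 54532 genes in the count table, of which 22046 were protein-coding. The choice rested on symbols alone, so *Slc7a6os*, which lies next to *Slc7a6* but is not a transporter, was among the 39.

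The study asked what the transcriptional regulator *Tox3* does in cerebellar development. mRNA from P1 cerebella was sequenced in bulk in 6 libraries. The 3 controls were *Tox3* f/f littermates, and the 3 mutants were conditional knockouts that carried Nestin-cre besides *Tox3* f/f. Nestin-Cre expresses Cre recombinase in the nervous system, so cells of other origin keep the floxed allele. Both groups were homozygous for the floxed allele. Since all mutants but no control carried Nestin-cre, effects of Cre and of the loss of *Tox3* cannot be told apart. The labels do not say whether each library came from 1 animal, and p-values therefore measure the spread between these libraries. The counts of *Tox3* itself covered the whole gene and overlapped between the groups (63.0 to 64.4 CPM against 55.3 to 63.2 CPM), so they do not check the labels, and "mutant" below means the libraries labelled so.

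Amino acid transporters are grouped by sequence into solute carrier families. SLC1 proteins take up glutamate or exchange small neutral amino acids. SLC7 proteins fall into cationic transporters, which carry arginine and lysine on their own, and light chains, which reach the cell surface bound to a heavy chain of the SLC3 family. SLC38 proteins are sodium-coupled carriers of glutamine, alanine and related amino acids, SLC36 proteins are proton-coupled carriers at the plasma membrane or the lysosome, and SLC43 proteins let large neutral amino acids diffuse through. In the cerebellum, glutamate uptake around Purkinje cells is a well known task of this group, and growing progenitors depend on the import of essential amino acids.

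Total counts lay between 15391854 and 17178478 per library, so that 3 counts corresponded to at most 0.196 CPM (CPM, counts scaled by the TMM-normalized library total). Levels are given in FPKM, fragments scaled for gene length and library total, because this unit allows genes of different length to be compared. Differences were tested on the counts by the quasi-likelihood test of edgeR. Its p-values were adjusted over 17505 tested genes by the Benjamini-Hochberg method, and all adjusted p-values below come from it unless another test is named. To be called lower or higher, a gene had to differ by more than 0.5 on the log2 scale, mutant against control, with an adjusted p below 0.01. Of all tested genes, 3.63% were called lower and 3.03% higher. Both sexes were present: *Xist* was high in control 2, control 3 and mutant 2, and *Ddx3y* was detected in the other libraries. The choroid plexus markers summed to 35.0 CPM in mutant 2 and 776 CPM in mutant 3, against 131 to 199 CPM in the controls, and so these mutant libraries stood apart in that respect. Markers listed for cerebellar neurons were *Zic1*, *Zic2*, *Pax6*, *En1*, *En2*, *Cbln1* and *Neurod1*, without the Purkinje cell markers given below. They summed to 3245 to 3390 CPM in the controls and 2330 to 2466 CPM in the mutants, with 4 of 7 called lower. Those of the oligodendrocyte lineage summed to 469 to 507 and 621 to 666 CPM (5 of 6 called higher), those of microglia to 71.2 to 75.7 and 90.7 to 104 CPM (1 of 6), and those of erythroid cells to 98.8 to 106 and 82.4 to 118 CPM (none).

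The promoters of 3 members are shown because *Slc1a6* was called higher, because *Slc7a1* was lower at an adjusted p below 0.01, within the fold threshold, and because *Slc7a11* holds paired copies of a response element of amino acid shortage. Each is the stretch of 250 bases before the start site in RefSeq (build GRCm38.p6), written 5′ to 3′ on the strand of the gene. Capitals mark CAGCTG, an E-box of the kind bound by *Atoh1* and other basic helix-loop-helix factors, CACGTG, the E-box of Myc, Max and TFEB, and TGATGNAA, which belongs to the C/EBP-ATF response element. Motifs were searched on both strands, and TTGCATCA is TGATGCAA on the other strand.
*Slc1a6*, chr10:78780246-78780495, plus strand: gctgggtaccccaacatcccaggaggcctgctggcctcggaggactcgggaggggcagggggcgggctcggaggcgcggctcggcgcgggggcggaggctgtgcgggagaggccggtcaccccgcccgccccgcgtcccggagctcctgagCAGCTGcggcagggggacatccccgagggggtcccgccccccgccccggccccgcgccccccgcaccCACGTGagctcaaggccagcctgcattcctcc
*Slc7a1*, chr5:148399905-148400154, minus strand: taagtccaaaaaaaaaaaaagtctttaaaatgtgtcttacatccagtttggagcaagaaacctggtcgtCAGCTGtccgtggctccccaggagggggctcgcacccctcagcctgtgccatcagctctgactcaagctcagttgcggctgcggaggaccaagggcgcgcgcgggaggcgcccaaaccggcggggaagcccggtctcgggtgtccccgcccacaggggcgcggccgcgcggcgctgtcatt
*Slc7a11*, chr3:50443614-50443863, minus strand: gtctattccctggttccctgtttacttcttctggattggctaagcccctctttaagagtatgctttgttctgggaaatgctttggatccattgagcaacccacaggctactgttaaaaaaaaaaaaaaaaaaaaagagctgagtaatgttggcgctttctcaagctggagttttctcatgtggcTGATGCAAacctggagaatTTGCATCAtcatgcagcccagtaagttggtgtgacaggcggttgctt
The window of *Slc1a6* held CAGCTG at -99 and CACGTG at -32, counted from the start site, and 78.8% of its bases were G or C. That of *Slc7a1* held CAGCTG at -181, and that of *Slc7a11* held TGATGNAA at -66 and -47. RefSeq promoters of 300 bases were used for 29 of the 39 members, *Slc1a5* not among them, with 40 start sites in all, and windows of 1 gene can share bases. CAGCTG was present in 8 of the 40 windows, against 16.3% of all 32851 promoters, CACGTG in 6 of 40 against 7.15%, and TGATGNAA in 4 of 40 against 3.97%. These counts describe letters in the windows and do not show binding.

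Of the 39 members, 31 had enough counts to be tested. *Slc1a6*, a glutamate transporter of Purkinje cells, was called higher in the mutant, and *Slc1a5*, an exchanger of glutamine and other neutral amino acids, was called lower. Among the members, 3.23% were thus called in each direction, and among all tested genes 3.63% were called lower and 3.03% higher. Without the fold threshold, 3 members passed an adjusted p of 0.01 upward (*Slc1a1*, *Slc1a4* and *Slc1a6*) and 2 downward (*Slc1a5* and *Slc7a1*), against 6.55% and 7.24% of all tested genes. Of these, *Slc1a1*, *Slc1a5* and *Slc7a1* did not pass when certain single libraries were left out, as given with each gene. The median log2 fold change of the 31 was 0.10, with a range from -0.64 to 1.02, beside -0.00696 over all tested genes. All mutant libraries lay above all controls for 12 members, or 38.7%, and below them for 6, or 19.4%. Over all tested genes these shares were 20.4% and 20.1%.

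**Figure D1:**
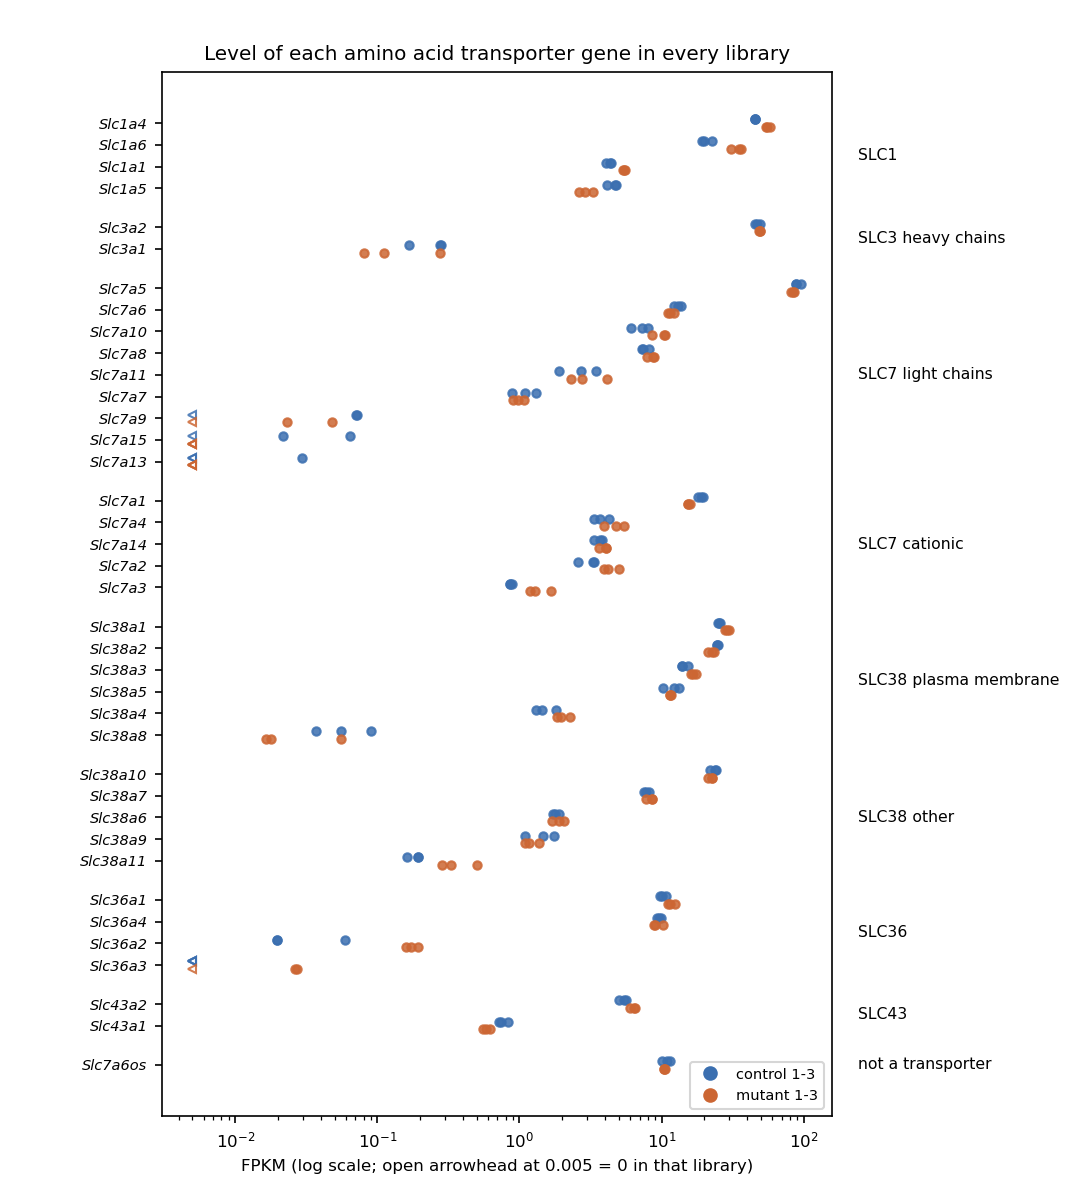
FPKM of the members in each library on a log scale, grouped by family, with blue points for controls and orange points for mutants. Open arrowheads mark a value of 0. Slc7a5 had the highest level and 9 members lay under 0.5 FPKM, of which Slc7a12 had no count in any library and is not drawn.

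The levels of the members spanned several orders of magnitude. In the mean over all libraries, 7 members exceeded 20 FPKM, 11 lay between 5 and 20, 12 between 0.5 and 5, and 9 below 0.5. *Slc7a5*, the light chain that carries leucine and other large neutral amino acids, had the highest level and made up 19.98% of the summed FPKM of the members. *Slc1a4*, an exchanger of serine and other small neutral amino acids, followed with 11.6%, and *Slc3a2*, the heavy chain that partners *Slc7a5*, with 11.02%. The means of these last 2, 50.8 and 48.2 FPKM, were close, and their order turned between the groups. The summed FPKM of all members was 424 ± 5.90 in the controls and 449.7 ± 6.97 in the mutants (SD, n = 3), without overlap. Most of this rise lay in the SLC1 members, with mean sums of 74.9 FPKM in the controls and 98.7 FPKM in the mutants. The sums of the other classes moved less and in both directions, such as the SLC7 light chains from 122.4 to 117.9 FPKM.

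Both called members belonged to the SLC1 family. The rule took in 4 genes of that family and left out others, such as *Slc1a2* and *Slc1a3*. All 4 were tested, all 4 had an adjusted p below 0.01, and in none did the groups overlap. Over all tested genes, 6.55% passed that adjusted p upward and 7.24% downward. The mutants lay wholly above the controls for 20.4% of them and wholly below for 20.1%. *Slc1a6* and *Slc1a4* stayed below 0.01 in all 16 alternative fits, *Slc1a5* in 11 and *Slc1a1* in 7. *Slc1a6*, *Slc1a4* and *Slc1a1* rose and *Slc1a5* fell. The summed FPKM of these 4 genes went from 74.9 ± 1.95 in the controls to 98.7 ± 4.33 in the mutants (SD, n = 3).

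*Slc1a6* (ENSMUSG00000005357, chr10:78780496-78814765, plus strand) encodes a high-affinity glutamate transporter found mainly on Purkinje cell dendrites. It was measured at 19.3, 20.04 and 22.6 FPKM in control 1, 2 and 3 and at 36.5, 31.02 and 35.1 FPKM in mutant 1, 2 and 3. The lowest mutant library stood well above the highest control. The difference was 0.72 on the log2 scale (standard error 0.08, adjusted p = 2.44e-04), a 1.65-fold higher level with a 95% interval from 1.45 to 1.87. The gene was called in all 16 alternative fits, in which the adjusted p was at most 0.00646.

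Markers of Purkinje cells moved with this gene. All 6 of them (*Calb1*, *Car8*, *Pcp2*, *Pcp4*, *Itpr1* and *Foxp2*) had higher estimates in the mutant and 4 were called, and their summed level was 1382 to 1455 CPM in the controls and 1913 to 2283 CPM in the mutants. As a percentage of that sum, the CPM of *Slc1a6* ranged from 2.99 to 3.54 in the controls and from 2.96 to 4.11 in the mutants, and these ranges overlapped. In bulk RNA, a different number of cells of a type and a different amount of RNA per cell cannot be told apart. The part of the Purkinje markers in this result was not tested.

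*Slc1a5* (ENSMUSG00000001918, chr7:16781340-16798274, plus strand) encodes a sodium-dependent exchanger of glutamine, serine and other neutral amino acids that is abundant in many dividing cells. It was measured at 4.76, 4.16 and 4.73 FPKM in the controls and at 3.27, 2.63 and 2.87 FPKM in the mutants. Every mutant library was below every control, and mutant 2 was the lowest. On the log2 scale the difference was -0.64 (standard error 0.11, adjusted p = 0.00228), a level of 0.641 of the control with a 95% interval from 0.541 to 0.759. The gene rested on 170 to 310 counts per library. Its call was lost without control 1 (adjusted p = 0.0108), without control 3 (0.0121) and without mutant 3 (0.0123), while its log2 fold change stayed at -0.61 or lower in those fits.

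Markers of granule neuron progenitors fell in the same libraries. All 5 (*Atoh1*, *Barhl1*, *Gli2*, *Mdga1* and *Ccnd1*) were called lower, and their summed level was 830.5 to 883 CPM in the controls and 272 to 299 CPM in the mutants. *Atoh1* had a log2 fold change of -6.40. As a percentage of that sum, *Slc1a5* was 2.10 to 2.40 in the controls and 4.07 to 4.57 in the mutants. Any gene that fell less than the sum gains such a share, so the rise does not give a level per progenitor. *Slc7a1*, also lower in the mutants, went from 24.8% to 27.0% of the sum in the controls to 61.0% to 66.1% in the mutants. The part of these markers in the level of *Slc1a5* was not tested. The paper places *Slc1a5* among the progenitor-enriched genes that were lower in *Tox3* mutants and also in *Atoh1* mutants. It reports overlapping Tox3 and Atoh1 binding peaks at this gene, which the libraries here do not measure.

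*Slc1a4* (chr11:20302180-20332713, minus strand), the serine and alanine exchanger of glia and neurons, was far more abundant than *Slc1a5*. It was measured at 45.2, 45.7 and 45.4 FPKM in the controls and at 55.5, 54.6 and 58.3 FPKM in the mutants. The controls were almost alike and all mutants were higher. The log2 fold change of 0.30 had a standard error of 0.04 (adjusted p = 9.83e-04), and it did not reach the fold threshold. The ratio of *Slc1a4* to *Slc1a5* in FPKM was 10.03 ± 0.828 in the controls and 19.4 ± 2.09 in the mutants (SD, n = 3). Its lack of overlap follows from the separation of both genes in opposite directions.

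*Slc1a1* (chr19:28835049-28913960, plus strand), a neuronal transporter of glutamate and cysteine, was measured at 4.33, 4.04 and 4.42 FPKM in the controls and at 5.45, 5.504 and 5.37 FPKM in the mutants. The groups did not overlap, and the log2 fold change was estimated at 0.35 (standard error 0.08, adjusted p = 0.00801). This adjusted p rose above 0.01 whichever library was left out, to between 0.0153 and 0.0324, and in the 3 fits on FPKM (0.0151 to 0.0317). Of the exon bases of *Slc1a1*, 31.9% lie opposite exons of *4430402I18Rik*, a gene with a mean of 28.5 counts. The strand setting of the counting was not stated, so reads there could have gone to either gene. *Slc1a6* exceeded *Slc1a1* 4.84-fold in the controls and 6.29-fold in the mutants.

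The markers of astrocytes and Bergmann glia, which express glutamate and neutral amino acid carriers, were also higher in the mutant. All 7 estimates were above 0, 3 were called, and the summed level was 3061 to 3140 CPM in the controls and 4162 to 4477 CPM in the mutants. Relative to that sum, *Slc1a4* was lower in the mutants, at 4.84% to 5.26% against 5.71% to 5.88%. The glial glutamate transporters are not among the 39 members. Of these, *Slc1a3*, itself in the marker list, had a log2 fold change of 0.37 (adjusted p = 2.20e-04), and *Slc1a2* one of 0.03 (adjusted p = 0.804).

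**Figure D2:**
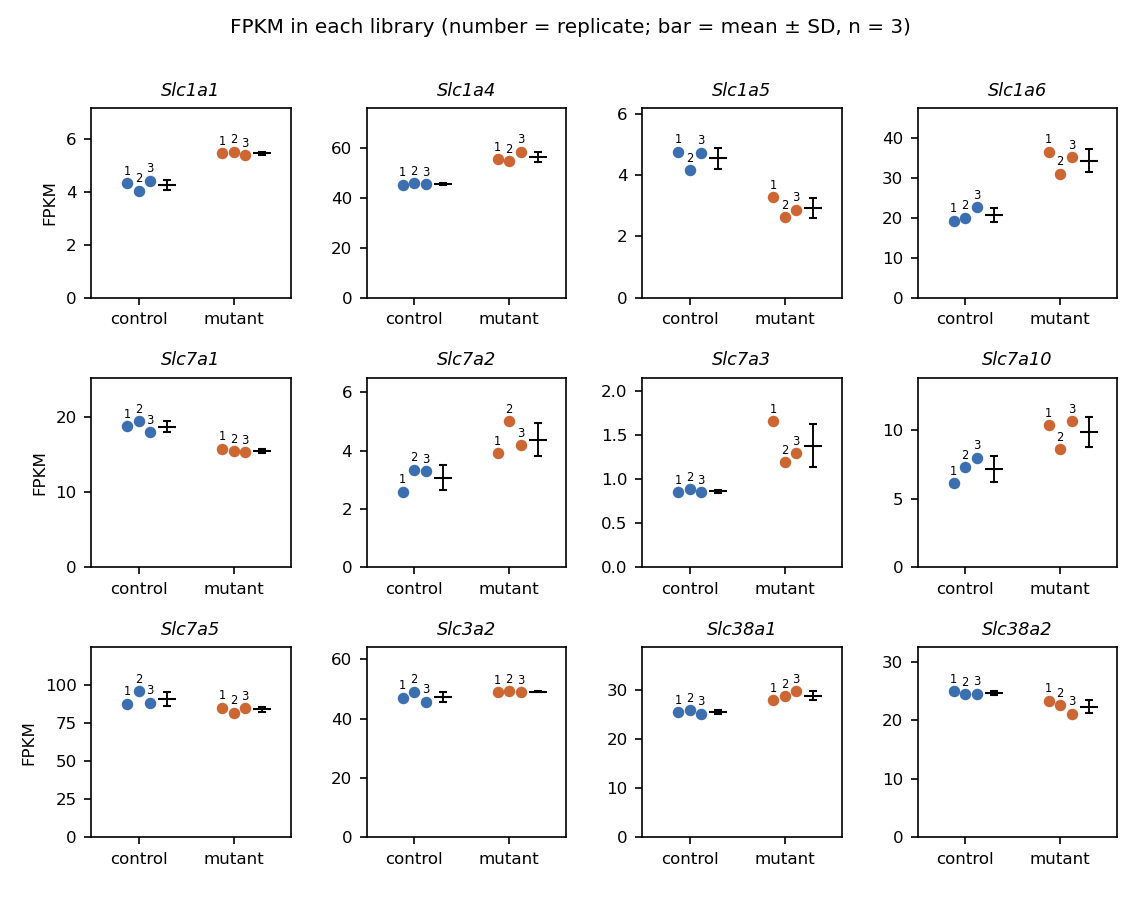
FPKM of 12 members in each library, with the replicate number above each point and bars for the mean ± SD (n = 3). The axes start at 0. The groups did not overlap in any panel but that of Slc3a2, and the mutant mean was lower for Slc1a5, Slc7a1, Slc7a5 and Slc38a2. The panels were partly chosen after the values were seen, so they do not give the share of members that overlapped. Over all tested genes, the mutants lay wholly below the controls for 20.1% and wholly above for 20.4%.

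The heavy chain *Slc3a2* (chr19:8706882-8723369, minus strand), which carries several SLC7 light chains to the cell surface, was measured at 47.0, 49.0 and 45.7 FPKM in the controls and at 48.9, 49.3 and 49.0 FPKM in the mutants. The groups overlapped, since control 2 lay within the range of the mutants. Its log2 fold change was 0.05, with a 95% interval from -0.05 to 0.15 (adjusted p = 0.482). The other heavy chain, *Slc3a1*, which serves cystine uptake in kidney and intestine, had 3 to 11 counts per library and was not tested. A stretch of 26.5% of its exon bases lies opposite exons of *Prepl*, which had a mean of 1810 counts.

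Among the light chains, 6 of 10 were tested, and none was called or passed an adjusted p of 0.01. *Slc7a5* (chr8:121881150-121907694, minus strand) was measured at 87.8, 96.1 and 88.3 FPKM in the controls and at 85.1, 81.9 and 84.8 FPKM in the mutants. The mutants were all lower, and control 2 was the highest of the libraries. The log2 fold change was -0.12 with a 95% interval from -0.23 to -0.01 (adjusted p = 0.109). The ratio of *Slc7a5* to *Slc3a2* in FPKM was 1.92 ± 0.0477 in the controls and 1.71 ± 0.0433 in the mutants (SD, n = 3), without overlap. This ratio was not tested.

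Endothelium, which carries *Slc7a5* at the blood-brain barrier, gave a summed marker level of 400 to 433 CPM in the controls and 408 to 426 CPM in the mutants, and none of its 7 markers was called. As a percentage of that sum, *Slc7a5* was 78.1 to 83.1 in the controls and 74.1 to 77.4 in the mutants, without overlap. *Slc7a6*, a light chain that exchanges arginine for glutamine, was also lower in every mutant library (log2 fold change -0.18, adjusted p = 0.0958). *Slc7a8*, a light chain of broad neutral specificity, had a log2 fold change of 0.15 (adjusted p = 0.213). *Slc7a7* had one of -0.16 (adjusted p = 0.620), and both overlapped between the groups. Of the exon bases of *Slc7a7*, 7.0% lie opposite exons of *Oxa1l*, a gene with a mean of 1200 counts against 54.7 for *Slc7a7*.

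*Slc7a10* (chr7:35186385-35201114, plus strand), the light chain that carries D-serine and glycine in astrocytes, was measured at 6.11, 7.31 and 7.99 FPKM in the controls and at 10.4, 8.61 and 10.6 FPKM in the mutants. All mutants were above all controls, with mutant 2 nearest to them. The difference of 0.46 on the log2 scale (standard error 0.12, adjusted p = 0.0202) was not called, and without mutant 2 the gene was called higher (0.56, adjusted p = 0.00824). Relative to the summed astrocyte markers the groups overlapped, at 0.415% to 0.556% in the controls and 0.410% to 0.527% in the mutants. Its exons share 17.9% of their bases with those of *Lrp3* on the opposite strand, a gene with a mean of 2090 counts against 288 for *Slc7a10*.

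*Slc7a11* (chr3:49892526-50443614, minus strand), the cystine-glutamate exchanger, varied more within the groups than between them. It was measured at 1.91, 3.45 and 2.73 FPKM in the controls and at 2.76, 4.10 and 2.29 FPKM in the mutants. Control 2 and mutant 2 were the highest of their groups. The log2 fold change was 0.17 with a 95% interval from -0.35 to 0.69 (adjusted p = 0.633), and its sign turned without control 1 (-0.02) and without mutant 2 (-0.09).

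Of the 5 cationic members, all tested, none was called. *Slc7a1* (chr5:148327410-148399904, minus strand), the general importer of arginine and lysine, was measured at 18.8, 19.4 and 17.97 FPKM in the controls and at 15.8, 15.4 and 15.3 FPKM in the mutants. The groups were well apart and each varied little. The difference was -0.28 on the log2 scale (standard error 0.05, adjusted p = 0.00193), a fall that passed the test and stayed within the fold threshold. The adjusted p was 0.0134 without mutant 3 and 0.0150 with limma on log2(FPKM + 1) without a filter, and below 0.01 in the other 14 alternative fits.

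*Slc7a2* and *Slc7a3*, the other arginine and lysine carriers of this branch, had higher values in the mutant. *Slc7a2* (chr8:40862396-40922308, plus strand) was measured at 2.59, 3.34 and 3.30 FPKM in the controls and at 3.92, 5.002 and 4.18 FPKM in the mutants, without overlap. Its log2 fold change was 0.50 (standard error 0.12) with an adjusted p of 0.0152, which missed the threshold, and it was called in 4 of the 16 alternative fits. *Slc7a3*, on chromosome X, was measured at 0.852, 0.887 and 0.858 FPKM against 1.66, 1.19 and 1.297 FPKM, with mutant 1 the highest (log2 fold change 0.67, standard error 0.19, adjusted p = 0.0252). Neither gene passed the test. As a percentage of the summed astrocyte markers, *Slc7a2* was 0.761 to 0.994 in the controls and 0.862 to 1.03 in the mutants, with overlap, and the part of these markers was not tested.

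The ratio of *Slc7a2* to *Slc7a1* in FPKM was 0.165 ± 0.0240 in the controls and 0.282 ± 0.0387 in the mutants, and that of *Slc7a3* to *Slc7a1* was 0.0462 ± 0.00132 and 0.0890 ± 0.0143 (SD, n = 3). Neither ratio overlapped, and neither was tested. The summed FPKM of the branch was 30.1 ± 0.545 in the controls and 29.9 ± 0.914 in the mutants. *Slc7a4* and *Slc7a14*, whose substrates are less clear, had log2 fold changes of 0.32 (adjusted p = 0.111) and 0.10 (adjusted p = 0.410), with overlap. Of the exon bases of *Slc7a4*, 13.3% lie opposite exons of *P2rx6*, with a mean of 154 counts against 282 for *Slc7a4*.

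**Figure D3:**
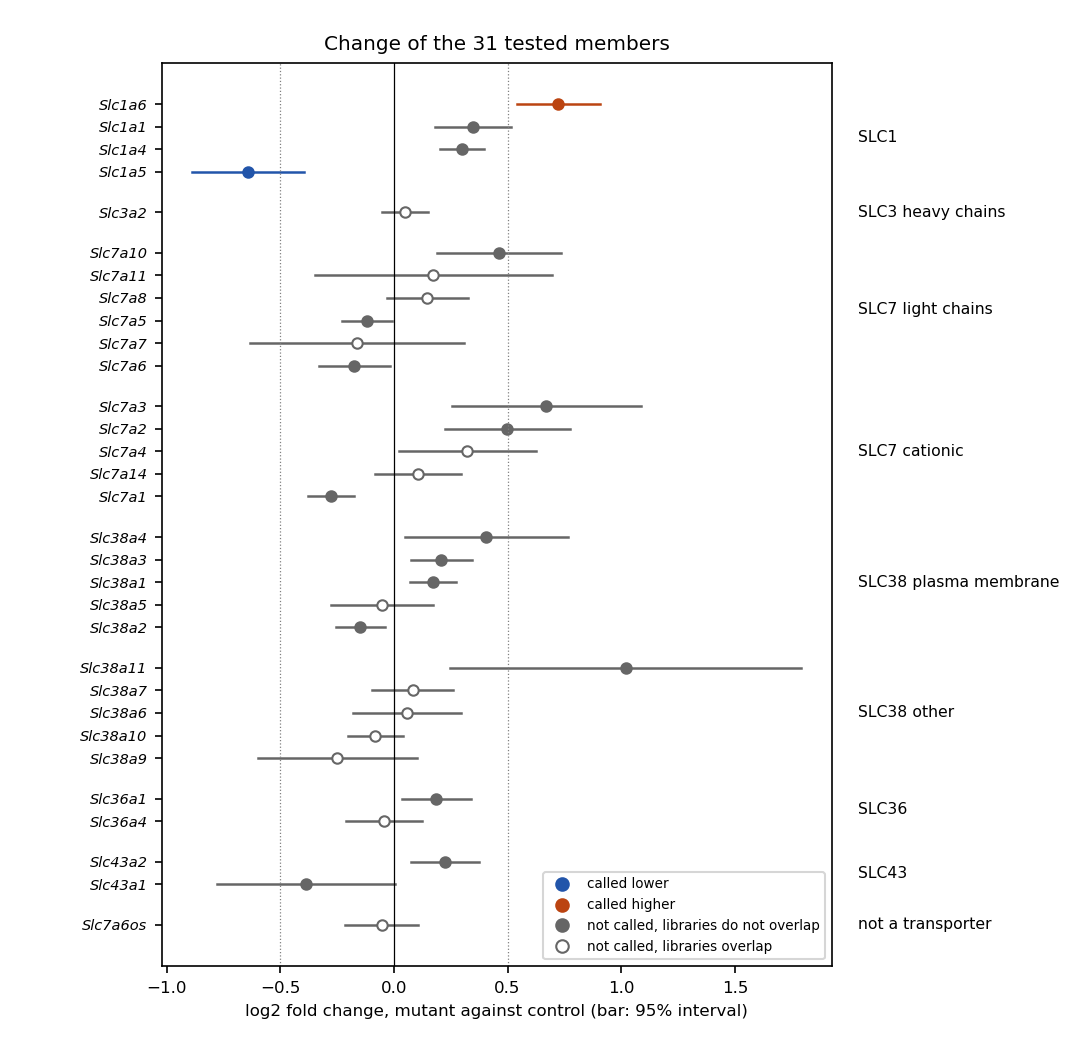
Log2 fold change of the 31 tested members, mutant against control, with 95% intervals as bars and dotted lines at the fold threshold of 0.5. Slc1a6 was called higher and Slc1a5 lower. Filled grey points mark 16 further members whose groups did not overlap, and open points the 13 that overlapped.

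The plasma membrane carriers of the SLC38 family lie partly side by side on chromosome 15, where *Slc38a1* and *Slc38a2* are 44.5 kb apart and *Slc38a4* follows 295 kb on, all on the minus strand. *Slc38a1* (chr15:96571418-96642913), a neuronal glutamine importer, was measured at 25.3, 25.8 and 25.1 FPKM in the controls and at 27.8, 28.7 and 29.7 FPKM in the mutants. *Slc38a2* (chr15:96687392-96699730), which is induced in many cells by amino acid shortage, was measured at 25.0, 24.4 and 24.6 FPKM against 23.4, 22.6 and 21.1 FPKM. The neighbours thus had nearly equal levels in the controls and unequal levels in the mutants, and neither overlapped between the groups. Their log2 fold changes were 0.17 (adjusted p = 0.0206) and -0.15 (adjusted p = 0.0509), so that neither passed the test. Their ratio in FPKM was 1.03 ± 0.0229 in the controls and 1.29 ± 0.109 in the mutants (SD, n = 3). It was not tested, and its shift follows from the separation of both genes in opposite directions.

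*Slc38a3*, a glutamine carrier of astrocytes and the blood-brain barrier, was higher in every mutant library (log2 fold change 0.21, adjusted p = 0.0310) but lower relative to the astrocyte markers, at 1.92% to 2.23% of their sum against 2.40% to 2.62%. Relative to the endothelial markers it was higher in the mutants, at 20.7% to 22.8% against 17.3% to 19.5%. *Slc38a4* also stood higher in every mutant (0.41, adjusted p = 0.0936). *Slc38a5*, found on glia and endothelium, overlapped (-0.05, adjusted p = 0.738), with a range of 10.3 to 13.3 FPKM in the controls and 11.5 to 11.6 FPKM in the mutants. None of the 5 tested genes of this class passed an adjusted p of 0.01.

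Of the lysosomal and less studied SLC38 genes, *Slc38a10* had the highest level. It was measured at 24.1, 21.9 and 23.9 FPKM in the controls and at 22.6, 21.1 and 22.7 FPKM in the mutants, and the groups overlapped (log2 fold change -0.08, adjusted p = 0.298). *Slc38a9*, the lysosomal arginine sensor upstream of mTORC1, was measured at 1.10, 1.74 and 1.47 FPKM against 1.16, 1.38 and 1.10 FPKM. It also overlapped (-0.25, adjusted p = 0.281), and so did *Slc38a7* (0.08) and *Slc38a6* (0.06). *Slc38a11* had the largest fitted fold of the 31 tested members, with 13, 13 and 11 counts in the controls and 38, 19 and 23 in the mutants. Mutant 1 was the highest. At a log2 fold change of 1.02 (standard error 0.35), the adjusted p of 0.0565 missed the threshold.

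*Slc36a1*, a proton-coupled carrier of small amino acids at the lysosome, was the most abundant member of its family. It was measured at 9.68, 10.8 and 10.1 FPKM in the controls and at 12.4, 11.02 and 11.4 FPKM in the mutants. The groups were just separate, and the log2 fold change was 0.19 (adjusted p = 0.0735). *Slc36a4* overlapped (-0.04, adjusted p = 0.701). *Slc36a2* (chr11:55158470-55185077, minus strand), a glycine and proline carrier whose 5′ end faces *Slc36a1* at a distance of 19.3 kb, was too rare to be tested.

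*Slc36a2* had 1, 3 and 1 counts in the controls and 11, 8 and 9 counts in the mutants. Every mutant library was above every control. At 5 counts in all against 28, the ratio per library total was 5.32 with an exact 95% interval of 2.03 to 17.6, which covers counting error only. When the filter on low counts was left out, edgeR gave it an adjusted p of 0.0482. *Slc38a8*, a glutamine carrier known from the retina, also had at most 3 counts in every library of 1 group only, with 2, 3 and 5 counts in the controls and 1, 3 and 1 in the mutants. These overlapped, at a ratio of 0.475 with an exact 95% interval of 0.127 to 1.52.

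The other untested members were near or below detection. *Slc7a12* had no count in any library, *Slc7a13* had 1 count in all, and *Slc36a3* had 1 count in each of 2 mutant libraries. *Slc7a15* had 3 and 1 counts in 2 controls, and *Slc7a9* at most 3 counts in any library. *Slc7a9* and *Slc3a1* together form the cystine carrier of the kidney, and both were near this limit in the cerebellum.

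The SLC43 genes, which let large neutral amino acids diffuse, had estimates of opposite sign. *Slc43a2* was measured at 5.48, 5.05 and 5.64 FPKM in the controls and at 6.55, 6.39 and 6.01 FPKM in the mutants (log2 fold change 0.22, adjusted p = 0.0359). *Slc43a1* was measured at 0.835, 0.745 and 0.713 FPKM against 0.584, 0.620 and 0.554 FPKM (-0.39, adjusted p = 0.140). In both the groups were separate and the test was not passed. *Slc7a6os*, the gene that is not a transporter, had a log2 fold change of -0.05 (adjusted p = 0.632).

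Genes outside the 39 that move or sense amino acids were read from lists. The shares to set beside the counts of each list are those over all tested genes, 3.03% called higher and 3.63% called lower. Of 24 other amino acid transporters, 19 were tested, 4 were called higher and none lower, with a median log2 fold change of 0.08. The called genes were *Slc32a1*, the vesicular carrier of GABA and glycine (0.65, adjusted p = 6.61e-05), *Slc6a5*, the glycine transporter of glycinergic neurons (0.64, adjusted p = 6.43e-04), *Slc6a7*, a proline transporter (0.61, adjusted p = 5.41e-04), and *Slc6a20a*, which carries proline and related imino acids (0.80, adjusted p = 0.00155). *Slc17a6*, the vesicular glutamate transporter of excitatory neurons, fell by 0.49 on the log2 scale (adjusted p = 4.59e-04), just inside the fold threshold. The markers of meninges, which can express *Slc6a20a*, summed to 685 to 720 CPM in the controls and 830 to 1010 CPM in the mutants, with 2 of 6 called higher, and their part in that gene was not tested.

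Of 29 genes that relay amino acids to mTORC1, all were tested and 1 was called lower. This was *Seh1l*, a nucleoporin that is also part of the GATOR2 complex (log2 fold change -0.54, adjusted p = 1.33e-04). *Rragb*, one of the Rag GTPases, passed the test without reaching the fold threshold (0.33, adjusted p = 0.00690), *Mtor* did not pass it (0.18, adjusted p = 0.0218), and the median of the list was 0.00233. Of 14 genes of the amino acid response, 1 was called, the stress gene *Nupr1* (1.08, adjusted p = 0.00429), which had a mean of 2.57 CPM in the controls and 5.46 CPM in the mutants. *Atf4*, the transcription factor of that response, had a log2 fold change of -0.20 (adjusted p = 0.0198), its upstream kinase gene *Eif2ak4* one of -0.19 (adjusted p = 0.0695), and the median of the list was 0.11.

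Of 12 genes of glutamine and glutamate metabolism, none was called by edgeR, but *Glud1* (log2 fold change 0.41, adjusted p = 3.31e-04), *Got1* (0.42, adjusted p = 0.00295) and *Gpt2* (0.30, adjusted p = 0.00339) passed the adjusted p, all upward. Over all tested genes, 6.55% passed it upward. *Glud1*, *Got1* and *Gpt2* encode enzymes that interconvert glutamate and 2-oxoglutarate. None of 7 glutathione synthesis genes passed an adjusted p of 0.01. The smallest p-values of that list were those of *Gclc* (-0.15, adjusted p = 0.120) and *Gclm* (-0.18, adjusted p = 0.178), the subunits of the first enzyme of the pathway, followed by *Gss* (-0.12, adjusted p = 0.336).

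**Figure D4:**
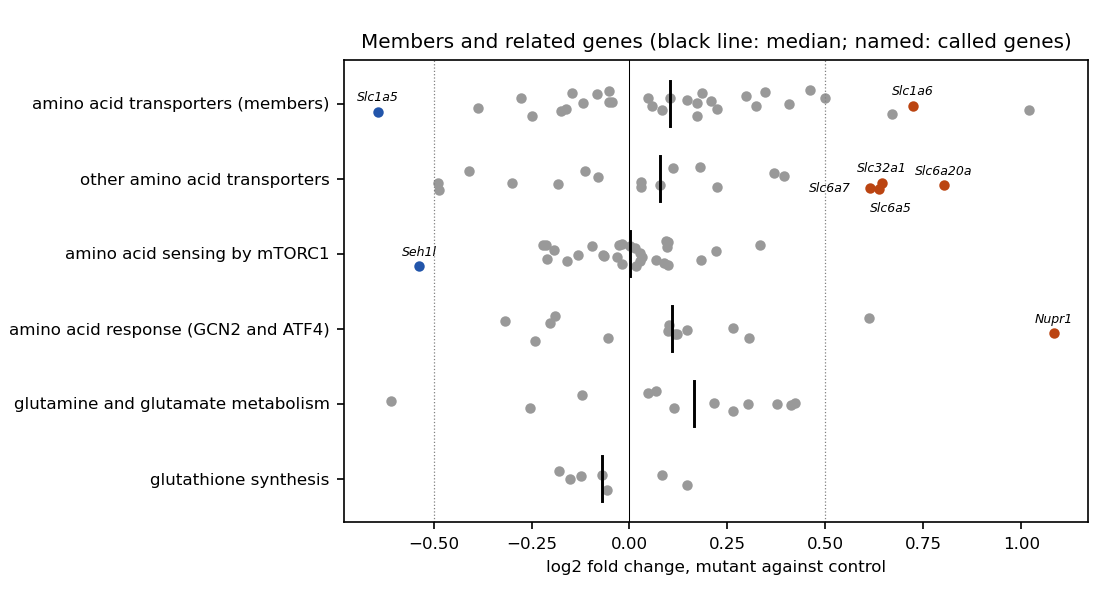
Log2 fold change, mutant against control, of the 31 tested members and of the tested genes in 5 related lists, with a black line at each median, coloured and named points for called genes and dotted lines at the fold threshold of 0.5. The medians lay between -0.07 for glutathione synthesis and 0.16 for glutamine and glutamate metabolism, and the called genes other than Slc1a5 and Seh1l were higher.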

How the data were processed

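The authors trimmed paired-end reads, aligned them to mm10 with HISAT2 2.0.5, counted them per gene with featureCounts 1.5.0-p3 and deposited the raw counts. The FPKM values deposited by the authors come from these counts and gene length. Per the labels and methods, the annotation, strand setting and handling of multiply mapped reads are not stated. The 3 libraries labelled mutant were compared with the 3 labelled control with the quasi-likelihood test of edgeR 4.0.16 in R 4.3.3 (filterByExpr filter, TMM scaling) over all 17505 genes that passed the filter, which held 99.8% of the counts (common dispersion 0.0105). The unit of limma-trend was log2(FPKM + 1) or log2(FPKM + 0.1), computed from the deposited FPKM. Since exact permutation of 3 against 3 libraries reaches no two-sided p below 0.1, p-values come from the fitted model. No library was a copy of another. Same-numbered libraries correlated at 0.291, 0.327 and -0.168. The highest correlation of each control with a mutant of another number was 0.305, -0.196 and 0.232. With so few libraries these values cannot decide whether replicate numbers pair them. Gene coordinates are those of GRCm38 in the deposited table. The fits were checked on simulated counts. The members and the lists, including the cell type markers, were chosen with earlier results of these data known. All members could be named. Values per library are given for called members, the most abundant of each class, the heavy chains, those near detection in 1 group only, and others chosen after their values were seen. Of each related list, called genes and the 3 with the smallest p are named, and *Slc1a2* was added after its value was seen. Alternatives were DESeq2 1.42.0, limma 3.58.1, other scalings, filters and thresholds, a replicate block, the level of Y-chromosome genes and each library left out.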

Additional observations from a re-analysis of the deposited data

How the results depend on the processing

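Of the members' fold changes under the alternatives, 479 kept their direction and side of the thresholds, 5 lost a call, 5 gained one and 5 turned sign. All 5 turns of sign came from leaving out 1 library. The log2 fold change then ranged from -0.0943 (without mutant 2) to 0.388 for *Slc7a11*, which was also negative without control 1 (-0.0237). The range was -0.0124 (without mutant 1) to 0.127 for *Slc38a6*, -0.113 to 0.00116 (without mutant 1) for *Slc36a4*, and -0.152 to 0.0317 (without control 2) for *Slc38a5*. The cause was not tested.

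The count of members called lower was 1 and went to 0 with limma-trend on log2(FPKM + 1), with or without a filter, where *Slc1a5* stood at -0.50 (adjusted p = 0.0103 and 0.0264). It was 2 without the fold threshold, at an adjusted p under 0.01 or 0.05. Leaving out 1 library gave 0 to 1. The count of members called higher was 1 and became 2 with DESeq2, without a filter, with Y-chromosome gene expression as a covariate, and at an adjusted p under 0.05 with the fold threshold. It was 3 and 9 without the fold threshold at 0.01 and 0.05, and 1 to 2 when 1 library was left out. With the replicate number as a block it was 2, since *Slc7a2* was then called (0.50, adjusted p = 0.00158). The block changed no other count by more than 1.5 times, and not every library correlated best with its own number. *Slc7a2* was also the added gene with DESeq2 (adjusted p = 9.81e-04), without a filter (1.31e-05) and with the Y-chromosome covariate (2.20e-05).

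For the related genes, 1 was called lower and 5 higher. The lower count was 2 without a filter, at an adjusted p under 0.01 without the fold threshold and at an adjusted p under 0.05 with it, and 7 at 0.05 without it. The higher count was 2 with limma-trend on log2(FPKM + 1) without a filter, and 11 and 13 without the fold threshold at 0.01 and 0.05. Leaving out 1 library gave 1 to 2 lower and 4 to 5 higher. The related count of 2 lower arose without control 1 and without mutant 1. Scaling moved the median of all tested genes from -0.00696 to -0.0016 with DESeq2 size factors and to 0.0107 with library size alone. The 8 untested members had at most 11 counts in any library, and the part of depth in this was not tested.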

Other observations

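A term for Y-chromosome gene expression beside genotype in the edgeR fit was examined after the members' values had been seen. At an adjusted p under 0.01 that term was called for 499 of 16905 autosomal genes (2.95%) and for 1 of the 31 tested members, *Slc7a11*, whose level fell by 0.38 on the log2 scale for each SD of the Y-chromosome level (adjusted p = 1.76e-04). *Slc7a11* had 413, 667 and 514 counts in control 1, mutant 1 and mutant 3, in which *Ddx3y* was detected, and 744, 597 and 886 counts in control 2, control 3 and mutant 2. These ranges overlapped. For *Slc7a2* (adjusted p = 0.0145) and *Slc38a9* (adjusted p = 0.0257) the term was also negative. With that term in the fit, the genotype difference of *Slc7a11* was 0.39 on the log2 scale (adjusted p = 0.00576), against 0.17 without it. Sex differs between only 6 libraries here, and the labels do not give it.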
